A study of Ictalurus furcatus with 16 samples.

Results

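The testes of blue catfish (Ictalurus furcatus, a freshwater fish of North America) labelled age 9 were compared with those labelled age 2, the age that the series names as its control; the labels state no unit of age. The comparison rests on 8 of the 16 RNA-seq libraries of the series, the 4 of age 9 and the 4 of age 2, each described as a biological replicate from 1 testis sample of a male. The other 8 libraries, 4 each of ages 4 and 7, entered the statistical model and are used below only to place age 9. No treatment, strain or genotype is given in the labels. Each library lists raw counts of sequenced fragments per transcript, summed here to 26356 gene symbols. Between 5136717 and 6368806 fragments were assigned to transcripts in the age 9 libraries, against 6633820 to 8081160 in the age 2 libraries, and 15979 genes passed the filter on low counts.

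The testis makes sperm from stem cells. Spermatogonia divide inside cysts of Sertoli cells, which nourish and signal to them, then pass through meiosis and become spermatids that build a tail, while Leydig cells between the tubules make androgens. Macrophages live in the spaces around the tubules, smooth-muscle-like cells wrap them, and any of these cells can answer interferon, a cytokine that switches on antiviral genes. Because the tissue was sequenced whole, fewer cells of a type and less RNA per cell cannot be told apart in anything that follows.

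The libraries held the transcripts of a testis. The Sertoli cell growth factor gsdf lay between 245 to 511 CPM (counts scaled to library size and composition) at age 9 and 101 to 6708 CPM at age 2, and the meiotic chromosome protein sycp1 between 235 to 291 CPM at age 9 and 57.2 to 529 CPM at age 2. Some defining markers were not listed or were hardly counted. Of the 53 cell type markers chosen, 24 were not tested. Part of these, such as cyp17a1 of Leydig cells, cd3e of lymphocytes and zp2 of oocytes, had no entry under that symbol. Of the others, dmrt1 of Sertoli cells, slc4a1a of red cells and tagln of smooth muscle had 0 counts in all 8 libraries, and ddx4 of germ cells had 1. The genes dmrt1, slc4a1a, tagln and ddx4 each have several transcripts. Fragments that fit several transcripts stood in the ambiguous summary row. Over all genes, 73.3% of those with 1 transcript were tested, against 39.5% of those with several.

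One library stood apart from its age. On the first principal component of the 500 most variable genes, which held 77.0% of the variance of the 8 libraries, the age 9 libraries lay between -39.6 and -23.1, age 2 replicate 1 at -23.3 and the other 3 age 2 libraries between 44.1 and 62.3. On the second component, with 8.78% of the variance, age 2 replicate 1 lay apart from both groups, at 30.5. There the age 9 libraries lay between -14.1 and 4.46 and the other 3 of age 2 between -7.02 and 5.79. The ribosomal RNA share of the assigned fragments of age 2 replicate 1 was 28.3%, against 14.8% to 22.2% in the other 3 of age 2. That of age 9 was 10.7% to 13.2%. The share of fragments that were ambiguous was 25.7% to 27.9% at age 9, 27.9% in age 2 replicate 1 and 22.8% to 24.8% in the other 3 of age 2. The part that these technical shares play in the differences below was not tested. From these data a mislabelled or mixed sample cannot be told apart from a fish that differs from others of its age, so every range and call that rests on age 2 replicate 1 carries that doubt. The sample codes end in the letter B for all age 9 libraries and for age 2 replicate 2, and in A for the other 3 of age 2. What the letters mean is not given in the labels, and their part in the differences was not tested. Replicate 2, with a B, lay with replicates 3 and 4 on the first component. Age 2 holds both letters but only this 1 library marked B, and age 9 holds no A. Letter and age are thus confounded in large part, and they were not separated here. Results are therefore given both with all libraries and without age 2 replicate 1.

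Against age 2, 1090 genes were higher and 1844 lower at age 9 by edgeR's quasi-likelihood test at an adjusted p under 0.05, which is 6.82% and 11.5% of the genes tested. Among them 379 rose and 624 fell by at least 4-fold. All 4 age 9 libraries lay above all 4 of age 2 in 776 of the higher genes and below them in 814 of the lower ones; called or not, 7.12% of the genes lay wholly above and 7.93% wholly below. Age 2 replicate 1 lay within the age 9 range in 24.5% of the higher genes and in 40.02% of the lower ones. Without it 3602 genes were higher and 3426 lower, 21.7% and 20.6% of 16597 tested, and 1089 of the 1090 rises and 1817 of the 1844 falls were called again in the same direction. Leaving out another library in turn gave 1701, 1477, 1470 and 2378 calls without age 9 replicates 1 to 4 and 1158, 1157 and 1705 without age 2 replicates 2 to 4. A fit of the 8 libraries alone called 6.62% of its genes, 400 higher and 587 lower (2.68% and 3.94%). The direction of the calls differed with the number of transcripts that a gene has: 765 rose and 1703 fell among genes with 1 transcript, whereas 325 rose and 141 fell among genes with several, where fragments that fit more than 1 transcript were set aside as ambiguous. Of the genes named below, cmpk2, znfx1, dtx3lb.2, stat1b, stat2, lck, ar, jam3a, odf2a, mns1, tppp3, wnt6b and comp have several transcripts and are the less certain for it.

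The interferon response was higher in all 4 age 9 testes. Of 31 genes on a list of interferon-induced effectors, the proteins that attack viral RNA or mark proteins for defence, 19 could be tested; 13 rose and 3 fell, with a median log2 fold change of 1.53, against -0.03 over all genes tested. The summed level of the tested members was 2799 to 4891 CPM at age 9 and 912 to 1337 CPM at age 2. The largest of these rises was that of ifit8, of a family that binds foreign RNA: its level was 309, 276, 577 and 239 CPM in the age 9 libraries, against 9.3, 11.5, 18.7 and 4.68 CPM in those of age 2. The lowest age 9 testis thus stood far above the highest of age 2, and the log2 fold change was 4.98 ± 0.75 (SE; adjusted p = 0.00249).

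The ubiquitin-like modifier isg15 stood at 131, 82.7, 356 and 66.8 CPM at age 9, against 5.61, 3.89, 8.89 and 4.51 CPM at age 2 (log2 fold change 4.79 ± 0.99, adjusted p = 0.0071). Its activating enzyme uba7 was at 78.8, 80.1, 137 and 65 CPM at age 9, against 6.89, 8.2, 9.33 and 14.7 CPM at age 2 (3.2 ± 0.45, adjusted p = 0.00211). The protease usp18, which removes isg15 from proteins, was at 62.9, 67.1, 96.9 and 48.2 CPM at age 9, against 7.05, 17.4, 22 and 9.53 CPM at age 2 (2.29 ± 0.40, adjusted p = 0.00369). The modifier and the enzymes that attach and remove it were thus higher together, with no overlap between the ages. The antiviral GTPase mxa was at 183, 135, 365 and 149 CPM at age 9, against 16.2, 12.2, 15.3 and 7.86 CPM at age 2 (4.01 ± 0.53, adjusted p = 0.00211). The nucleotide kinase cmpk2 and the helicase helz2a had log2 fold changes of 4.30 ± 0.65 and 4.58 ± 0.67. The large ubiquitin ligase rnf213b, the most abundant effector named here, was at 1089, 939, 1457 and 869 CPM at age 9, against 95.9, 305, 363 and 192 CPM at age 2 (2.19 ± 0.46, adjusted p = 0.00743). In all 8 of these genes age 9 replicate 3 held the highest level of the 8 libraries, a pattern seen after the values were known.

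The kinase eif2ak2, which stops translation when it binds double-stranded RNA, the RNA sensor znfx1 and ifi35 rose by 1.86 ± 0.35, 1.86 ± 0.31 and 1.35 ± 0.29 on the log2 scale. The exceptions fell. No fragment of dtx3lb.2, a relative of a ubiquitin ligase that works with parp9, was counted at age 9, against 95 at age 2. It was thus at least 28.9-fold lower when 3 counts are set for age 9 as a whole, a bound that leaves out spread between libraries. Its age 2 levels were 0.16, 8.76, 3.93 and 0.669 CPM. The nucleotide hydrolase samhd1 (-0.56 ± 0.19, adjusted p = 0.0488) and ifi44b (-2.52 ± 0.70, adjusted p = 0.024) were lower as well. In age 2 replicate 1 ifi44b stood at 0.962 CPM, within the age 9 range of 0.513 to 1.8 CPM. Without that library 13 effectors rose and 4 fell, in the 8 libraries alone 12 of 18 rose, and with any 1 library left out 12 or 13 rose. The falls were less stable. The call of dtx3lb.2 was lost without any 1 library other than age 2 replicate 1 (adjusted p 0.0533 to 0.122). That of samhd1 was lost without any 1 library other than age 9 replicate 1, or age 2 replicate 1 or 4 (adjusted p 0.0926 to 0.163), and that of ifi44b without any 1 library other than age 9 replicate 4, or age 2 replicate 1 or 4 (adjusted p 0.0597 to 0.0771).

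**Figure D1:**
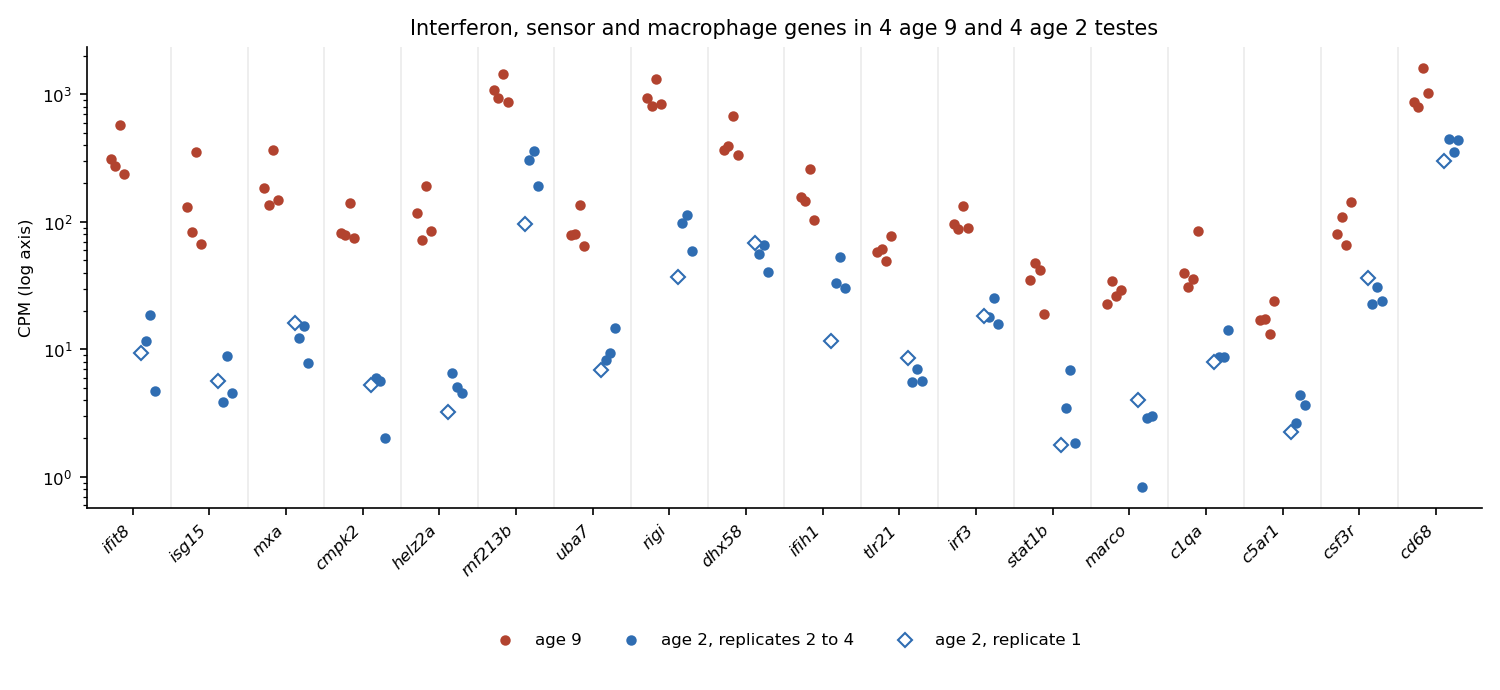
Level in CPM (log axis) of 18 interferon, sensor and macrophage genes in each library, with the 4 age 9 libraries in red at the left of each gene, the age 2 libraries in blue at the right and age 2 replicate 1 as an open diamond. In all 18 genes the age 9 libraries lie above the age 2 libraries, and the diamond lies among or below the other age 2 points or, as in mxa, dhx58, tlr21, marco and csf3r, just above them.

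Cytosolic sensors of viral RNA and the factors that pass their signal on moved the same way. Of 17 tested nucleic acid sensors and adaptors 5 rose (29.4%, against 6.82% of all genes), with a median of 0.47. Without age 2 replicate 1, 6 did (35.3%, against 21.7% of all genes), and with another library left out 4 or 5. The sensor rigi stood at 937, 814, 1331 and 836 CPM at age 9, against 37.2, 98, 113 and 59.4 CPM at age 2 (3.67 ± 0.61, adjusted p = 0.00315), with no overlap and with age 2 replicate 1 lowest. Its relatives ifih1 and dhx58 had log2 fold changes of 2.37 ± 0.48 and 2.94 ± 0.35. The endosomal receptor tlr21, which in fish and birds detects unmethylated CpG DNA, was at 58.1, 61.4, 49.5 and 77.2 CPM, against 8.5, 5.56, 6.99 and 5.68 CPM at age 2 (3.2 ± 0.44, adjusted p = 0.00211). It was highest in age 9 replicate 4, whereas the 3 RNA sensors were highest in replicate 3.

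Of 29 tested interferon receptors, interferon regulatory factors (IRF) and STAT factors, 8 rose (27.6%) and 2 fell (6.9%), with a median of 0.45. Over all genes 6.82% rose and 11.5% fell. Among them irf3, which switches on interferon genes once a sensor is engaged, was at 96.8, 87.4, 133 and 89.8 CPM at age 9, against 18.3, 18.1, 25.2 and 15.7 CPM at age 2 (2.40 ± 0.41, adjusted p = 0.00324). The related irf7 rose by less (1.03 ± 0.27). The 3 parts of the complex that carries the interferon signal to DNA, stat1b (3.35 ± 0.72), stat2 (1.27 ± 0.40) and irf9 (1.73 ± 0.37), each rose, as did socs1a, an inhibitor of the same pathway (1.26 ± 0.33). The phosphatase ptpn2a was among those that fell (-0.76 ± 0.25, adjusted p = 0.0479). Leaving out age 2 replicate 1, 11 members rose (37.9%) and 4 fell (13.8%), against 21.7% and 20.6% of all genes. The fewest rises were 4, without age 9 replicate 3 or age 2 replicate 2. The call of irf7 was lost without age 9 replicate 3, or age 2 replicate 2 or 3 (adjusted p 0.0532 to 0.0586). That of stat2 was lost without any 1 library other than age 2 replicate 1 or 3 (adjusted p 0.0575 to 0.0877). That of socs1a was lost without age 9 replicate 3, or age 2 replicate 2 or 3 (adjusted p 0.0575 to 0.0644). That of ptpn2a was lost without any 1 library other than age 2 replicate 1 (adjusted p 0.0614 to 0.144).

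Markers of macrophages, the resident phagocytes, rose alongside. Of 28 tested macrophage and myeloid genes 14 rose and 1 fell, with a median of 1.15, and their summed level was 1978 to 2908 CPM at age 9, against 1151 to 1429 CPM at age 2. The scavenger receptor marco stood at 22.6, 34.5, 26.2 and 29.4 CPM at age 9, against 4.01, 0.834, 2.91 and 3.01 CPM at age 2 (3.39 ± 0.64, adjusted p = 0.00511). The pore-forming protein mpeg1.1 was at 22.1, 21.6, 19 and 45.7 CPM at age 9, against 5.29, 6.26, 7.72 and 8.69 CPM at age 2 (1.95 ± 0.49, adjusted p = 0.0163). Neither gene overlapped between the ages. The 3 chains of complement C1q, which macrophages make, rose almost equally, by 2.26 ± 0.45 for c1qa, 2.23 ± 0.44 for c1qb and 2.23 ± 0.49 for c1qc. The lysosomal protein cd68 was at 874, 796, 1612 and 1029.9 CPM at age 9, against 303, 451, 351 and 439.7 CPM at age 2 (1.48 ± 0.31, adjusted p = 0.00768), with no overlap. The receptors c5ar1 (2.46 ± 0.44) and csf3r (1.81 ± 0.28) and the myeloid factor irf8 (2.05 ± 0.38), which also stands on the IRF list, were higher, whereas cebpb, a factor of myeloid and stress responses, fell (-1.86 ± 0.61, adjusted p = 0.0459). When age 2 replicate 1 was left out, 15 of the macrophage genes rose and 1 fell; the fewest rises were 8, without age 2 replicate 2. The call of mpeg1.1 was lost without age 2 replicate 2 (adjusted p = 0.0525). That of cebpb was lost without any 1 library other than age 2 replicate 1 (adjusted p 0.0634 to 0.187). The part that the macrophage transcripts play in the interferon result was not tested.

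Lymphocyte markers did not move one way. Of 22 tested, 6 rose and 2 fell with a median of -0.01, and the summed level was 431 to 517 CPM at age 9 and 439 to 556 CPM at age 2. The T cell kinases itk (1.9 ± 0.40) and lck (1.44 ± 0.48, adjusted p = 0.0483) rose, and the B cell receptor chain cd79a stood at 75.9 to 121 CPM at age 9 and 31.3 to 121 CPM at age 2. Of 18 antigen presentation genes 4 rose, among them the beta-2 microglobulin gene b2ml (1.55 ± 0.42) and the invariant chain cd74b (1.16 ± 0.36, adjusted p = 0.0375). Of 42 cytokine and chemokine genes 5 were higher (11.9%) and 4 lower (9.52%), against 6.82% and 11.5% of all genes. The chemokine ccl34b.4 rose (2.96 ± 0.54), and the chemokine receptors ccr9b (-1.99 ± 0.42) and cxcr4a (-3.16 ± 0.93) fell. The adhesion molecule vcam1b, by which white cells hold to vessel walls in mammals, was at 35.2, 61.2, 27.7 and 39.7 CPM at age 9, against 4.81, 2.09, 3.21 and 9.86 CPM at age 2 (3.04 ± 0.52, adjusted p = 0.00324). With age 2 replicate 1 set aside, 6 of 23 lymphocyte genes rose and 6 fell (26.1% each way). Then 8 antigen presentation genes rose (44.4%), and 10 cytokine and chemokine genes rose (23.3%) and 7 fell (16.3%). Of all genes in that fit, 21.7% rose and 20.6% fell. The fewest rises among the antigen presentation genes were 1, without age 2 replicate 2 or 3, among the cytokine genes 1, without age 9 replicate 1 or 3, or age 2 replicate 2 or 3 and among the lymphocyte genes 3, without age 9 replicate 2, 3 or 4, or age 2 replicate 2 or 3. The call of lck was lost without any 1 library other than age 2 replicate 1 (adjusted p 0.0535 to 0.133). That of cxcr4a was lost without any 1 library other than age 9 replicate 4 or age 2 replicate 1 (adjusted p 0.0604 to 0.0863). That of b2ml was lost without age 9 replicate 4, or age 2 replicate 2 or 3 (adjusted p 0.0524 to 0.0658). That of cd74b was lost without age 9 replicate 2 or 4, or age 2 replicate 2 or 3 (adjusted p 0.0615 to 0.0987).

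Hormone genes of Leydig cells changed in a few members, and by very unequal amounts among the age 9 fish. Of 25 tested Leydig and steroid genes 4 rose (16%) and 1 fell (4%), against 6.82% and 11.5% of all genes. Their median was 0.03. The peptide hormone insl3 stood at 886, 195, 849 and 53.2 CPM at age 9, against 53.1, 26.8, 20.3 and 6.35 CPM at age 2 (4.22 ± 1.15, adjusted p = 0.0217). The groups did not overlap, but the lowest age 9 testis, replicate 4, was level with the highest of age 2, replicate 1. The steroid enzyme hsd17b1 was at 20.003, 2.2, 19 and 3.59 CPM at age 9, against 0.801, 0.417, 0 and 0.334 CPM at age 2 (4.80 ± 1.06, adjusted p = 0.00972). Replicates 1 and 3 were the high ones of age 9 in both genes.

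The same replicates were high at age 9 in star, which brings cholesterol into mitochondria (126, 46.7, 213 and 28.7 CPM), and in hsd3b1, a steroid dehydrogenase (262, 91.1, 416 and 87.3 CPM), genes whose ranges at age 2 were 23.9 to 202 CPM and 65.6 to 295 CPM and which did not pass. Also higher were the dehydrogenase hsd17b14 (1.01 ± 0.25) and the relaxin family peptide insl5b, at 2.91, 4.22, 2.15 and 1.47 CPM, against 1.28, 0, 0 and 0 CPM at age 2 (adjusted p = 0.0305). The reductase srd5a1 fell (-1.50 ± 0.41, adjusted p = 0.0215). At 5.93 CPM age 2 replicate 1 lay below every age 9 library, and the other 3 of age 2 lay at 19.9 to 30.5 CPM. Without that replicate 7 members rose (28%) and 4 fell (16%), against 21.7% and 20.6% of all genes in that fit. The fewest rises were 2, without age 9 replicate 1 or 3, or age 2 replicate 2, 3 or 4. The call of insl3 was lost without any 1 library other than age 9 replicate 2 or 4, or age 2 replicate 1 (adjusted p 0.0509 to 0.0667). That of insl5b was lost without any 1 library other than age 9 replicate 4 or age 2 replicate 1 (adjusted p 0.0531 to 0.088). That of srd5a1 was lost without age 9 replicate 2 or 3, or age 2 replicate 2 or 3 (adjusted p 0.0582 to 0.0811).

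A few contractile genes were also higher. Of 27 tested smooth muscle and peritubular genes 6 rose (median 0.39), with a summed level of 4962 to 13870.1 CPM at age 9 and 2415 to 6928 CPM at age 2. The actin-binding protein synpo2b was at 949, 442, 1079 and 549 CPM at age 9, against 117, 65.7, 149 and 157 CPM at age 2 (2.63 ± 0.42, adjusted p = 0.00287). No age 2 library came near the age 9 range. Desmin desmb (1.9 ± 0.45), calponin cnn1b (1.65 ± 0.42) and the kinase mylkb (1.18 ± 0.34) followed, while the smooth muscle actin acta2, at 2344 to 8095 CPM at age 9 and 1274 to 3820.1 CPM at age 2, did not pass (adjusted p = 0.0523). The mean log2 CPM of the list was 4.79 to 5.11 at age 9, 3.29 in age 2 replicate 1 and 4.19 to 5.44 in the other 3 of age 2, with replicate 4 of age 2 the highest of the 8 libraries. In the fit without age 2 replicate 1, whose mean level of this list was the lowest of the 8 libraries, 7 members (25.9%) rose and 5 (18.5%) fell, against 21.7% and 20.6% of all genes; the fewest rises were 2, without age 9 replicate 3, or age 2 replicate 2 or 3. Of 24 sarcomere genes 6 rose and 2 fell. The skeletal actin acta1b was at 54.5, 4.58, 52.3 and 10.1 CPM at age 9, high in replicates 1 and 3, against 5.93, 3.2, 2.62 and 5.52 CPM at age 2 (2.82 ± 0.75, adjusted p = 0.0196). The small heat shock protein hspb1, abundant in muscle, was at 166 to 316 CPM at age 9 and 23.6 to 105 CPM at age 2 (2.21 ± 0.41, adjusted p = 0.00473). Without age 2 replicate 1, 11 sarcomere genes rose and 5 fell, and the fewest rises were 2, without age 9 replicate 1, or age 2 replicate 2 or 3. The call of cnn1b was lost without age 9 replicate 3, or age 2 replicate 2 or 3 (adjusted p 0.0536 to 0.0589). That of mylkb was lost without age 9 replicate 1 or 3, or age 2 replicate 2 or 3 (adjusted p 0.06 to 0.072). That of acta1b was lost without age 9 replicate 1 or 3, or age 2 replicate 2 or 3 (adjusted p 0.0551 to 0.065).

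Genes of early germ cells were lower at age 9. Of 34 tested spermatogonia and germline regulators 9 fell (26.5%) and 1 rose (2.94%), against 11.5% and 6.82% of all genes. Their median was -0.84. The RNA-binding protein nanos2, which keeps spermatogonia undifferentiated in mice, stood at 0.342, 1.28, 1.69 and 3.43 CPM at age 9, against 1.92, 93, 26.2 and 26.2 CPM at age 2 (-4.43 ± 0.95, adjusted p = 0.00853). The 2 age groups overlapped, because age 2 replicate 1 lay within the age 9 range. Its relative nanos1 was at 14.2, 12.5, 9.35 and 20.4 CPM at age 9, against 2.08, 98.7, 66 and 191 CPM at age 2 (-2.66 ± 0.79, adjusted p = 0.0297), and here the same library lay below all of age 9. The factor sall1b was at 4.27, 3.85, 4.75 and 6.37 CPM at age 9, against 8.66, 33.6, 32.3 and 23.9 CPM at age 2 (-2.35 ± 0.38, adjusted p = 0.00315), without overlap. The factors id4 (-1.85 ± 0.45) and taf4b (-1.25 ± 0.34) were lower too.

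Both parts of the receptor for the stem cell factor GDNF were measured, and they went opposite ways. The kinase ret was at 6.15, 2.75, 3.53 and 5.71 CPM at age 9, against 5.29, 21.3, 22.7 and 12.2 CPM at age 2 (-1.76 ± 0.42, adjusted p = 0.0127). The co-receptor gfra1b was at 62.6, 16.3, 56.9 and 13.5 CPM at age 9, against 6.89, 8.48, 8.16 and 8.53 CPM at age 2 (2.22 ± 0.56, adjusted p = 0.0168). Its high age 9 libraries were again replicates 1 and 3. Leaving out age 2 replicate 1, 13 of 35 list members fell (37.1%) and 3 rose (8.57%), against 20.6% and 21.7% of all genes. The fewest falls were 3, without age 2 replicate 3. The call of gfra1b was lost without age 2 replicate 3 (adjusted p = 0.0501). That of nanos1 was lost without any 1 library other than age 9 replicate 4 or age 2 replicate 1 (adjusted p 0.0563 to 0.105). That of id4 was lost without age 2 replicate 3 (adjusted p = 0.0501). That of taf4b was lost without age 9 replicate 2 or 3, or age 2 replicate 2 or 3 (adjusted p 0.0535 to 0.0665).

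Of 15 tested genes of the piRNA pathway, which silences mobile elements in germ cells, 8 fell and 1 rose (median -0.91). The tudor-domain proteins rnf17 and tdrd1 were the most abundant of those named that fell. The level of rnf17 was 140.2, 80.5, 127 and 161 CPM at age 9, against 236, 1013, 816 and 629 CPM at age 2 (-2.41 ± 0.39, adjusted p = 0.00315). That of tdrd1 was 77.3, 73, 70.7 and 143 CPM at age 9, against 120.4, 703, 616 and 388 CPM at age 2 (-2.33 ± 0.43, adjusted p = 0.00473). In both genes age 2 replicate 1 was the lowest of its age, and in tdrd1 it lay within the age 9 range. The methyltransferase henmt1, which protects the ends of piRNAs, fell as well (-1.80 ± 0.39, adjusted p = 0.00864), with 9.62 CPM in that library. When age 2 replicate 1 was left out, 8 members fell and 2 rose, and with any 1 library left out 6 to 8 fell.

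Sertoli cell genes divided. Of 31 tested 7 fell (22.6%) and 3 rose (9.68%), against 11.5% and 6.82% of all genes (median -0.28). The growth factor gsdf was at 261, 245, 409 and 511 CPM at age 9, against 101, 2479, 1934 and 6708 CPM at age 2 (-2.98 ± 0.75, adjusted p = 0.0159). The kit ligand kitlgb, a signal from Sertoli cells to spermatogonia, was at 3.25, 2.02, 1.53 and 3.43 CPM at age 9, against 2.56, 18.2, 23.8 and 20.7 CPM at age 2 (-2.67 ± 0.60, adjusted p = 0.0104). The adhesion protein cdh2 was at 55.9, 50.4, 42.5 and 76.2 CPM at age 9, against 24.7, 220.3, 185 and 194 CPM at age 2 (-1.47 ± 0.45, adjusted p = 0.0361). In gsdf and cdh2 age 2 replicate 1 was the lowest of all 8 libraries, and the other 3 of age 2 were the highest. The androgen receptor ar fell in the same pattern (-1.15 ± 0.37, adjusted p = 0.0435, with 18 CPM in age 2 replicate 1). The members that rose were keratin krt18b (1.54 ± 0.47), the junction protein jam3a (1.63 ± 0.46) and the activin subunit inhbab, at 109, 44.2, 165 and 94.7 CPM, against 44.2, 35.2, 21.1 and 16.4 CPM at age 2 (1.82 ± 0.41, adjusted p = 0.0102). At 44.2 CPM age 2 replicate 1 was level with the lowest age 9 library in inhbab, and in krt18b and jam3a it lay within the age 9 range. With age 2 replicate 1 set aside, 10 members fell (32.3%) and 4 rose (12.9%), against 20.6% and 21.7% of all genes. The fewest falls were 1, without age 9 replicate 2. In the 8 libraries alone, where 3.94% of all genes fell, 1 of 29 fell. The call of gsdf was lost without age 9 replicate 2 or age 2 replicate 4 (adjusted p 0.0508 to 0.0559). That of cdh2 was lost without any 1 library other than age 9 replicate 4 or age 2 replicate 1 (adjusted p 0.0803 to 0.111). That of ar was lost without any 1 library other than age 2 replicate 1 (adjusted p 0.0724 to 0.157). That of krt18b was lost without any 1 library other than age 9 replicate 1 or 2, or age 2 replicate 1 (adjusted p 0.0549 to 0.119). That of jam3a was lost without any 1 library other than age 9 replicate 1 or 4, or age 2 replicate 1 (adjusted p 0.052 to 0.0823). The hormone amh and the receptor fshr did not pass and lay at 65.1 to 239 and 215 to 287 CPM at age 9, against 29.2 to 219.9 and 110.1 to 470.1 CPM at age 2.

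The result for genes of the sperm tail rested on that 1 library. Of 73 tested flagellum and spermiogenesis genes 62 had a positive fold change and the median was 1.28, but 4 rose and 4 fell. In the fit without age 2 replicate 1, 54 of 76 rose (71.1%) and 5 fell (6.58%), with a median of 2.74. Of all genes in that fit 21.7% rose and 20.6% fell. The mean log2 CPM of the list was 4.17 to 5.22 at age 9, 4.94 in age 2 replicate 1 and 2.05 to 2.64 in the other 3 of age 2. The tail protein odf2a stood at 30.1, 57.9, 22.2 and 13.4 CPM at age 9, against 20.8, 1.67, 0.874 and 1 CPM at age 2 (2.34 ± 0.78, adjusted p = 0.0463, and 4.72 ± 0.52 without replicate 1 of age 2). The sperm tail gene mns1 was at 26.7, 44.2, 17.5 and 13.5 CPM, against 21.3, 0.834, 1.17 and 0.167 CPM at age 2. It passed only without that replicate (5.12 ± 0.59, adjusted p = 1.85e-05, against 2.12 ± 0.87, adjusted p = 0.0955, with it). The call of odf2a was lost without any 1 library other than age 9 replicate 4 or age 2 replicate 1 (adjusted p 0.0684 to 0.139). Both genes, and those named below for the respiratory chain, the proteasome and cell division, were chosen by their p in the fit without that library.

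All 4 age 9 libraries lay above all 4 of age 2 in 3 of the 73 tail genes and below them in 2. Over all genes tested these shares were 7.12% and 7.93%, so such genes were no more frequent on this list. The inner-arm dynein dnah3 was at 123.1, 117, 85.4 and 84.9 CPM at age 9, against 261, 333, 346 and 297 CPM at age 2 (-1.59 ± 0.28, adjusted p = 0.00403). Its relative dnah9l was at 9.75, 15.4, 10.4 and 13.9 CPM at age 9, against 17.8, 53.5, 57.3 and 50.8 CPM at age 2 (-1.86 ± 0.31, adjusted p = 0.00315). These motor proteins were thus lower at age 9. In contrast, the microtubule protein tppp3 was at 12.7, 15.2, 9.81 and 5.55 CPM at age 9, against 3.85, 1.11, 0.437 and 0.167 CPM at age 2 (2.95 ± 0.64, adjusted p = 0.00864), also without overlap.

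Meiosis and cell division depended on the same library. Over all genes 6.82% rose and 11.5% fell with it, and 21.7% rose and 20.6% fell without it. Of 29 meiosis genes 1 rose (3.45%) and 4 fell (13.8%), and without it 10 rose (34.5%) and 4 fell (13.8%). Of 53 mitotic genes 1 rose (1.89%) and 7 fell (13.2%), and without it 21 of 56 rose (37.5%) and 9 fell (16.1%). The recombinase dmc1 was at 71.1, 58.7, 69.3 and 58.6 CPM at age 9, against 147, 24.9, 18.5 and 9.03 CPM at age 2. The kinetochore protein nuf2 was at 40.3, 37, 44 and 43.8 CPM at age 9, against 86.6, 12, 9.33 and 13 CPM at age 2. Age 2 replicate 1 exceeded all of age 9 in both genes, and the other 3 of age 2 lay below all of age 9. Respiratory chain genes of the nucleus (48 tested) rose in 5 cases (10.4%), and without that library 30 of 49 rose (61.2%). For the complex I subunit ndufa10 the levels were 81.4, 92.9, 87.2 and 86.2 CPM at age 9 and 119.9, 35.7, 29.9 and 31.3 CPM at age 2. By edgeR's quasi-likelihood test 0 of 37 proteasome genes passed, 3 had an unadjusted p under 0.05 and DESeq2 called 1 higher. Without that library 26 of 38 rose (68.4%). The level of the subunit psmd12 was 122, 121, 137 and 121 CPM at age 9 and 209.8, 63.9, 43.4 and 54.8 CPM at age 2. With all libraries 32 of the 37 had a positive fold change.

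**Figure D2:**
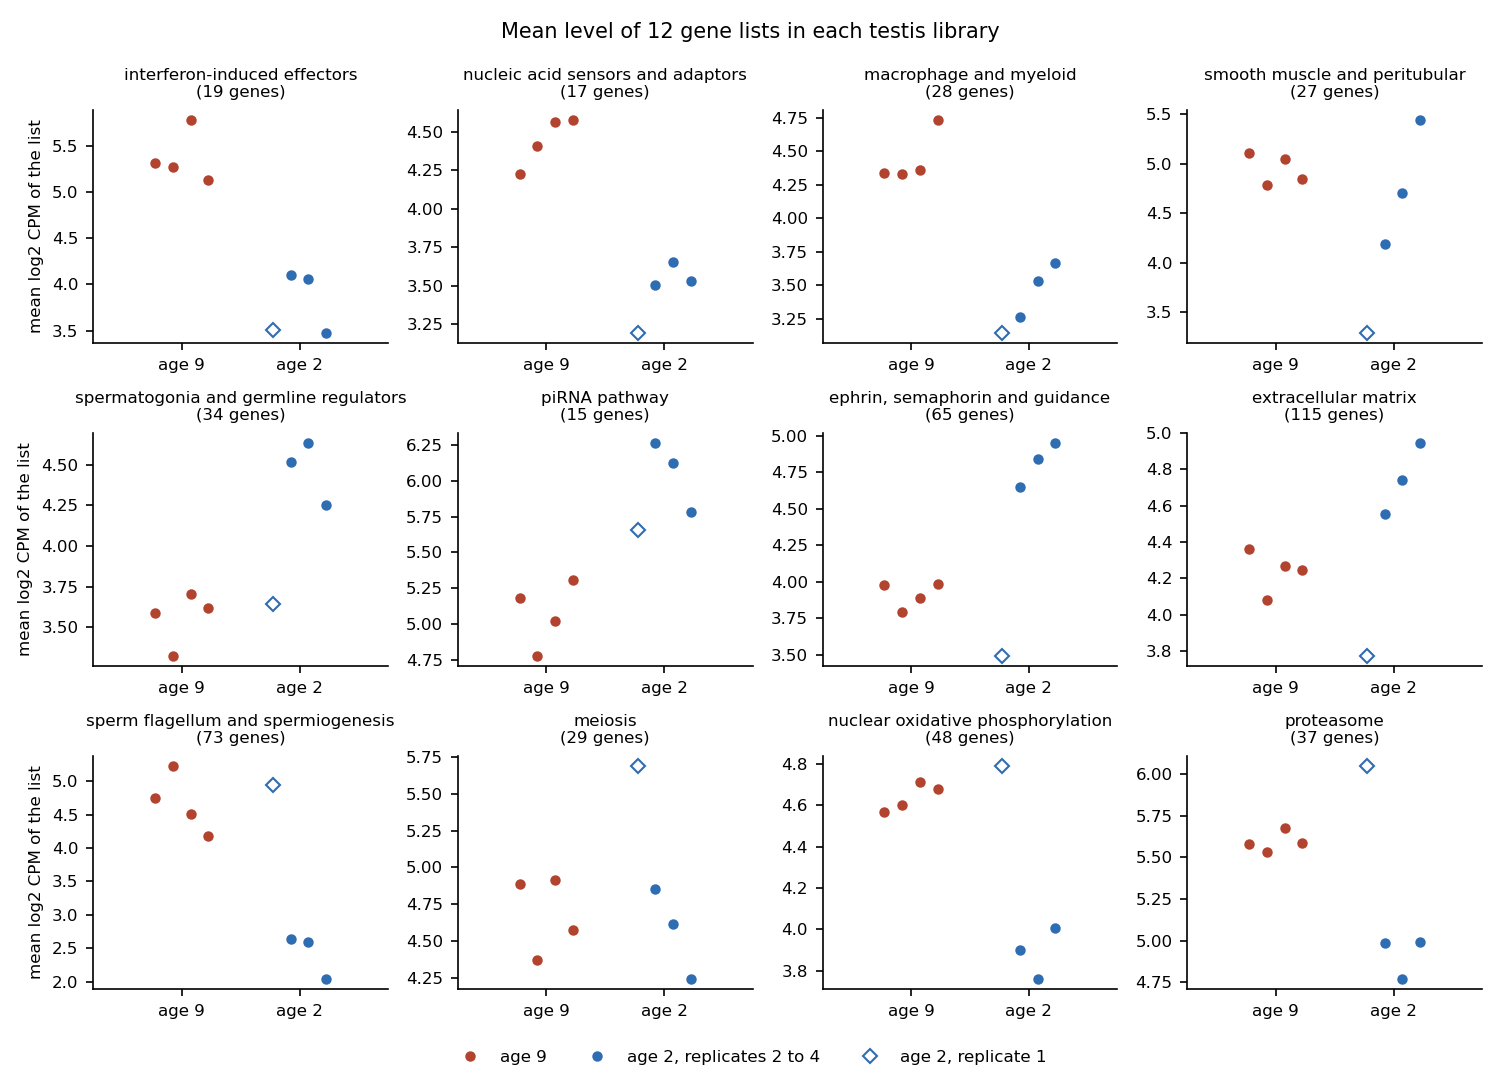
Mean log2 CPM of the tested genes of 12 lists in each library, with age 9 in red at the left and age 2 in blue at the right of each panel and age 2 replicate 1 as an open diamond; the vertical scales differ. The diamond lies with or below the other age 2 points in the interferon, sensor, macrophage and smooth muscle panels, and within or beyond the age 9 points in the spermatogonia, guidance, matrix, flagellum, meiosis, respiratory chain and proteasome panels.

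Part of the genes of cell guidance, growth signals and matrix fell at age 9, in shares of 16.3% to 30.6% of a list, against 11.5% of all genes tested. Of 65 tested ephrin, semaphorin and other guidance genes 19 fell and 1 rose (median -0.68). The ephrin receptor epha8 stood at 0.513, 0.367, 0.307 and 0.979 CPM at age 9, against 1.44, 78.7, 92.5 and 117 CPM at age 2 (-7.01 ± 0.98, adjusted p = 0.00211). The groups did not overlap, though age 2 replicate 1 lay much nearer to age 9 than to its own age. The receptor ephb3a was at 22.1, 10.3, 13.2 and 11.9 CPM, against 38.5, 45.6, 51.4 and 35.6 CPM at age 2 (-1.57 ± 0.27, adjusted p = 0.00324), with all 4 age 2 libraries close together. The Slit receptor robo2 fell (-2.19 ± 0.55) but lay lowest in age 2 replicate 1, at 8.01 CPM. The plexin plxnc1 was the member that rose (1.18 ± 0.25). Without age 2 replicate 1, 35 of 66 fell (53%) and 3 rose (4.55%), against 20.6% and 21.7% of all genes. The fewest falls were 7, without age 9 replicate 2, or age 2 replicate 2 or 3. The call of robo2 was lost without age 9 replicate 3 or age 2 replicate 4 (adjusted p 0.0535 to 0.0556).

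Of 41 tested Wnt genes 8 fell (median -0.83). They include the ligand wnt9b, at 1.71, 0.733, 0.613 and 1.8 CPM at age 9, against 2.24, 60.9, 112 and 11 CPM at age 2 (-5.24 ± 0.95, adjusted p = 0.00433). Others were the receptor fzd3a (-2.12 ± 0.42) and kremen1, a receptor of a Wnt inhibitor (-2.72 ± 0.58). The ligand wnt6b fell as well (-3.50 ± 0.97), though it has several transcripts. Of 36 insulin and IGF signalling genes 11 fell. The adaptor irs1 was at 143, 119, 124.6 and 142 CPM at age 9, against 184, 466, 431 and 465 CPM at age 2 (-1.55 ± 0.27, adjusted p = 0.0033). The receptor igf1rb had a log2 fold change of -0.93 ± 0.20. In the TGF-beta and activin list 9 of 49 (18.4%) fell and 3 rose, with the receptor acvr1ba at -2.16 ± 0.49. In the FGF, PDGF, VEGF and EGF list 8 of 49 (16.3%) fell. Leaving out age 2 replicate 1, the falls numbered 15 of 43 for Wnt, 19 of 37 for IGF, 15 of 53 for TGF-beta and 21 of 52 for FGF and its relatives. Of all genes in that fit 20.6% fell. The fewest falls were 3, without age 2 replicate 3 for Wnt, 4, without age 9 replicate 1, or age 2 replicate 2, 3 or 4 for IGF, 4, without age 9 replicate 2 or age 2 replicate 3 for TGF-beta and 2, without age 9 replicate 3 or age 2 replicate 3 for FGF and its relatives. In the 8 libraries alone, where 3.94% of all genes fell, the falls numbered 3 of 63 for guidance, 3 of 40 for Wnt, 2 of 35 for IGF, 4 of 46 for TGF-beta and 1 of 45 for FGF and its relatives. The call of wnt6b was lost without any 1 library other than age 9 replicate 4, or age 2 replicate 1 or 2 (adjusted p 0.0529 to 0.0861).

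Of 115 tested extracellular matrix genes 25 fell and 5 rose (median -0.50). The basement membrane collagen col4a6 was at 60.2, 50.8, 47.2 and 82.4 CPM at age 9, against 56.1, 320.1, 280.5 and 371 CPM at age 2 (-2.09 ± 0.41, adjusted p = 0.00583). The fibrillin fbn2b was at 77.1, 68.9, 54.7 and 57.6 CPM at age 9, against 109, 142, 156 and 268 CPM at age 2 (-1.38 ± 0.23, adjusted p = 0.00324). Age 2 replicate 1 lay within the age 9 range in col4a6 and above it in fbn2b. Against this trend, tenascin tnn was at 41.5, 21.4, 35.3 and 103 CPM at age 9, against 10.1, 1.11, 0.437 and 1.67 CPM at age 2 (3.93 ± 1.01, adjusted p = 0.0177). The matrix protein comp, first known from cartilage, was at 10.3, 3.12, 2.15 and 10.6 CPM at age 9, against 1.12, 0.417, 0.146 and 0.502 CPM at age 2 (3.55 ± 0.60, adjusted p = 0.00324). When age 2 replicate 1 was left out, 41 of 119 fell (34.5%) and 15 rose (12.6%), against 20.6% and 21.7% of all genes. The fewest falls were 12, without age 9 replicate 3. The call of tnn was lost without age 2 replicate 2, 3 or 4 (adjusted p 0.0521 to 0.0597).

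**Figure D3:**
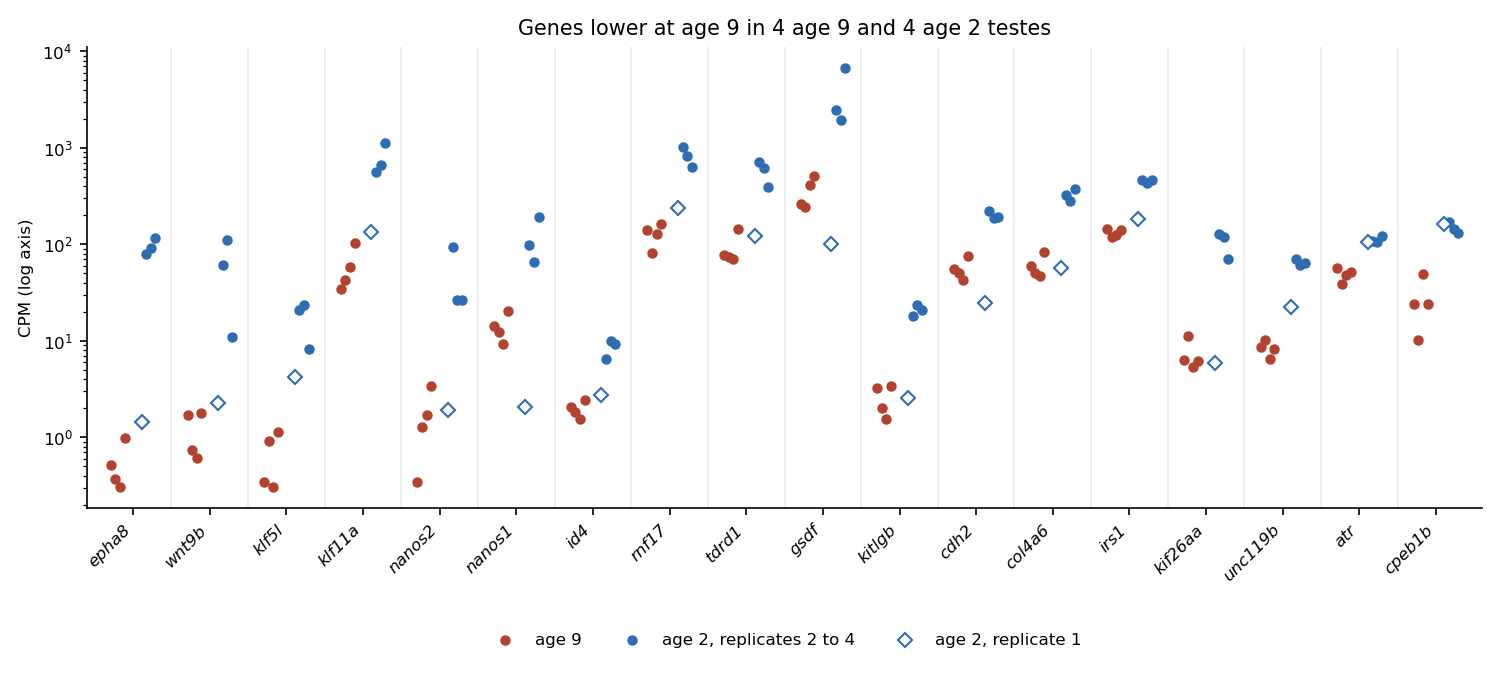
Level in CPM (log axis) of 18 genes that fell, with the 4 age 9 libraries in red at the left of each gene, the age 2 libraries in blue at the right and age 2 replicate 1 as an open diamond. The diamond is the lowest age 2 point in every gene but cpeb1b, and it lies within or below the age 9 points in nanos2, nanos1, tdrd1, gsdf, kitlgb, cdh2, col4a6 and kif26aa.

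Among transcription factors, 14 of 55 immediate early and Klf genes fell (25.5%) and 1 rose (1.82%), with a median of -0.89. Over all genes 11.5% fell and 6.82% rose. The factor klf11a was at 34, 42.9, 58.4 and 104 CPM at age 9, against 134, 557, 670.3 and 1111 CPM at age 2 (-3.37 ± 0.57, adjusted p = 0.00324). Its relative klf5l was at 0.342, 0.916, 0.307 and 1.14 CPM at age 9, against 4.17, 21, 23.6 and 8.19 CPM at age 2 (-4.37 ± 0.62, adjusted p = 0.00211). Both kept the ages apart, with age 2 replicate 1 lowest of its age. The orphan receptor nr4a2b, also an immediate early gene, had a log2 fold change of -1.72 ± 0.31 (adjusted p = 0.00401). With age 2 replicate 1 set aside, 24 of 56 members fell (42.9%) and 5 rose (8.93%), against 20.6% and 21.7% of all genes. The fewest falls were 7, without age 9 replicate 1, or age 2 replicate 2 or 4. Of 77 ribosomal protein genes 21 fell (27.3%, median -0.62). Their member rps3a was at 390.0, 348, 450.1 and 522 CPM at age 9, against 623, 972, 814 and 851 CPM at age 2 (-0.93 ± 0.19, adjusted p = 0.0073). Their falls numbered 43 of 78 (55.1%, against 20.6% of all genes) without age 2 replicate 1. In the 8 libraries alone, where 3.94% of all genes fell, they numbered 5 of 77. The fewest with 1 library left out were 4, without age 9 replicate 2 or age 2 replicate 2.

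DNA repair genes fell in 9 of 52 cases. The checkpoint kinase atr was at 56.9, 38.9, 47.5 and 51.6 CPM at age 9, against 105, 107, 106 and 122.9 CPM at age 2 (-1.18 ± 0.23, adjusted p = 0.00541), with the 4 age 2 libraries close together. The mismatch repair gene pms2 fell without overlap (-0.78 ± 0.17, adjusted p = 0.01). In the fit without age 2 replicate 1, 14 of 53 fell (26.4%) and 7 rose (13.2%), against 20.6% and 21.7% of all genes. The fewest falls were 3, without age 2 replicate 2. Of 80 tested histone and DNA modifying enzymes 4 rose and 6 fell (7.5%, against 11.5% of all genes). Of 105 translation and RNA decay genes 9 rose and 5 fell (4.76%). The counts without age 2 replicate 1 were 18 higher and 10 lower for the enzymes, and 34 higher and 9 lower for the others. All 4 age 9 libraries lay below all 4 of age 2 in 9 of the 80 enzymes. The same held for 8 of the 105 translation and RNA decay genes and for 7.93% of all genes. Among these members were kat2a and edc4, regulators of broad reach. The histone acetyltransferase kat2a was at 139, 144, 125.4 and 164 CPM at age 9, against 181, 514, 429 and 432 CPM at age 2 (-1.44 ± 0.24, adjusted p = 0.00324). The mRNA decapping scaffold edc4 was at 278, 266, 285 and 282 CPM at age 9, against 406, 632, 582 and 641 CPM at age 2 (-1.03 ± 0.17, adjusted p = 0.00315).

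**Figure D4:**
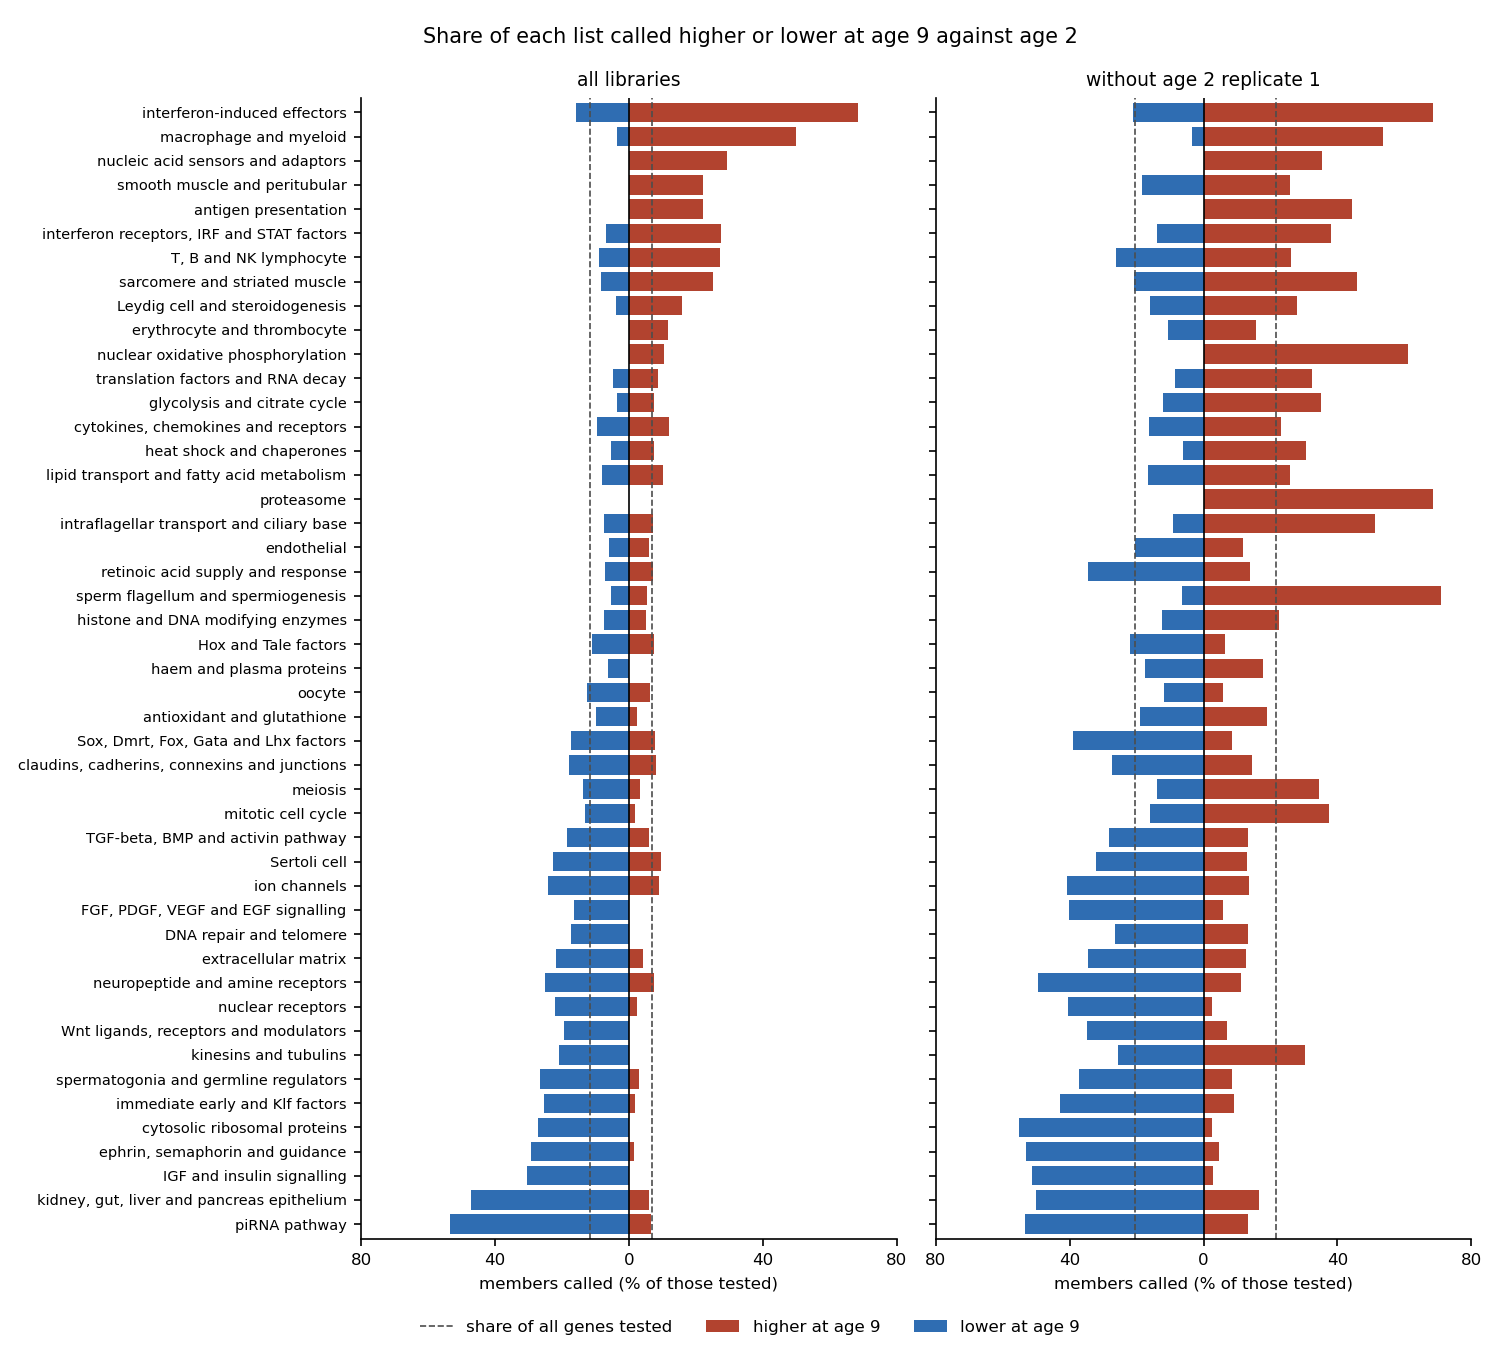
Share of the tested members of each list of at least 15 tested genes called higher (red, to the right) or lower (blue, to the left) at age 9 against age 2, with all libraries and without age 2 replicate 1; dashed lines mark the share of all genes tested. The interferon effector and macrophage bars are of similar length in both panels, whereas the flagellum, proteasome and respiratory chain bars are short with all libraries and long without that library.

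Lists of lipid and retinoid genes, outside these groups, had few calls in either direction. Of 49 lipid genes 5 rose (10.2%) and 4 fell (8.16%), against 6.82% and 11.5% of all genes. The fatty acid binding protein fabp7a was at 81.6, 68.2, 168 and 180.2 CPM at age 9, against 30.3, 9.87, 4.52 and 6.52 CPM at age 2 (3.28 ± 0.60, adjusted p = 0.00433). The enzyme elovl5, an elongase of polyunsaturated fatty acids, was at 122, 104, 166 and 212 CPM at age 9, against 52.6, 43.9, 39.6 and 45.6 CPM at age 2 (1.73 ± 0.36, adjusted p = 0.00721). Neither gene overlapped between the ages. The retinoid list had 2 of 28 higher and 2 lower. Its member crabp1a, which binds retinoic acid in the cytosol, was at 65, 1.47, 36.6 and 122 CPM at age 9, against 0.962, 0.834, 1.17 and 1.67 CPM at age 2 (5.59 ± 1.08, adjusted p = 0.00562). Replicate 2 of age 9 lay within the age 2 range and the other 3 far above it. The enzyme lrata, which stores retinol as ester, fell (-2.17 ± 0.50, with 2.56 CPM in age 2 replicate 1 and 20.7 to 28.3 CPM in the other 3). Without that library 14 of 54 lipid genes rose (25.9%) and 9 fell (16.7%), against 21.7% and 20.6% of all genes. Of 29 retinoid genes 4 then rose (13.8%) and 10 fell (34.5%). The fewest rises among the lipid genes were 3, without age 9 replicate 2 or 4, or age 2 replicate 3.

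Of 199 ion channel genes 48 fell (24.1%, against 11.5% of all genes) and 18 rose (9.05%, against 6.82%), with a median of -0.44. The channel best4 was at 0.513, 1.83, 0.767 and 1.14 CPM at age 9, against 2.89, 31.4, 13.7 and 13.4 CPM at age 2 (-3.84 ± 0.66, adjusted p = 0.00324). The glycerol and water channel aqp10b was at 18.1, 20.9, 17 and 17.6 CPM at age 9, against 3.21, 2.78, 1.89 and 1.84 CPM at age 2 (2.91 ± 0.41, adjusted p = 0.00211). Both kept the ages apart. Receptors for neuropeptides and amines fell in 17 of 68 cases (25%) and rose in 5 (7.35%), with a median of -1.05. Those that fell include the dopamine receptor drd2a (-1.92 ± 0.38), the opioid receptor oprm1 (-3.30 ± 0.66) and the cholecystokinin receptor cckar (-3.79 ± 0.92). Without age 2 replicate 1, 88 of 215 channels (40.9%) and 40 of 81 receptors (49.4%) fell, against 20.6% of all genes. The fewest falls were 24, without age 2 replicate 3 for channels and 6, without age 2 replicate 3 for receptors. In the 8 libraries alone, where 3.94% of all genes fell, 15 of 185 channels and 3 of 61 receptors fell.

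Lists for tissues that a testis piece could carry along were measured as well. The kidney, gut, liver and pancreas list summed to 496 to 716 CPM at age 9 and 501 to 636 CPM at age 2. Of its members 8 of 17 fell, among them cubn, a receptor of kidney and gut (-1.28 ± 0.25), and 1 rose. The liver marker fabp10a had 2 counts at age 9 and 33 at age 2. The oocyte list summed to 84.2 to 175 CPM at age 9 and 223 to 508 CPM at age 2. Of its 16 tested members 1 rose and 2 fell (12.5%, against 11.5% of all genes). The translational regulator cpeb1b was at 24.3, 10.3, 49.1 and 23.8 CPM at age 9, against 161, 168, 143 and 130.1 CPM at age 2 (-2.48 ± 0.71, adjusted p = 0.0261). The other member that fell was the growth factor gdf9 (-1.72 ± 0.53, adjusted p = 0.0362). The call of cpeb1b was lost without any 1 library other than age 9 replicate 3, or age 2 replicate 1 or 4 (adjusted p 0.0569 to 0.0754). That of gdf9 was lost without any 1 library other than age 2 replicate 1 (adjusted p 0.0624 to 0.0987). Leaving out age 2 replicate 1, 9 of 18 epithelial genes fell, and the fewest falls were 2, without age 2 replicate 3. Whether these transcripts bear on the falls above was not tested.

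Some of the largest changes were in genes not described above, most of them on no list. The amino acid oxidase il4i1, which mammalian immune cells secrete, was at 60.4, 51.1, 163 and 48.8 CPM at age 9, against 4.49, 7.78, 10.1 and 4.18 CPM at age 2 (3.60 ± 0.76, adjusted p = 0.00794). The arylsulfatase arsia was at 66.8, 12.3, 146 and 41 CPM at age 9, against 3.69, 1.53, 7.43 and 4.51 CPM at age 2 (3.95 ± 0.91, adjusted p = 0.0115). From the list of haem and plasma proteins, the haem-binding hpxa was represented by 2 fragments at age 9, against 84 at age 2. That is 38.3-fold lower, with a 95% interval of 10.3 to 321.3 that covers counting error only. On the list of kinesins and tubulins, kif26aa was at 6.33, 11.2, 5.37 and 6.2 CPM at age 9, against 5.93, 129, 120.2 and 69.7 CPM at age 2 (-3.48 ± 0.60, adjusted p = 0.00337); age 2 replicate 1 lay within the age 9 range. Genes known by number alone reached further: LOC128617785 was at 43.1, 27.7, 74.2 and 34.9 CPM at age 9, against 0.481, 1.11, 0.583 and 0.502 CPM at age 2 (6.01 ± 0.90, adjusted p = 0.00249). No fragment of LOC128608889 was counted in the age 9 libraries, against 140 in those of age 2. It was thus at least 42.5-fold lower when 3 counts are set for age 9 as a whole, a bound that leaves out spread between libraries. Its age 2 levels were 0.16, 4.45, 13.1 and 2.84 CPM, with replicate 1 close to age 9. In gdpd3a, a lipid phosphodiesterase at 0.171, 0.367, 0.153 and 0.163 CPM at age 9 and 0.641, 4.73, 9.76 and 4.68 CPM at age 2, the fall was carried by age 2 replicates 2 to 4.

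Age 9 was not separated from ages 4 and 7 by the same test. Against age 4 no gene passed edgeR's quasi-likelihood test, with 1505 genes (9.42%) at an unadjusted p under 0.05, and DESeq2 called 111. Against age 7 no gene passed, with 1131 (7.08%) at an unadjusted p under 0.05, and DESeq2 called 75. The smallest adjusted p were 0.1197 and 0.126. Nevertheless all 4 age 9 libraries lay above all 12 others in 97 genes (0.607% of those tested), 83 of them called against age 2, and below all 12 in 33 (0.207%), 20 of them called. On the interferon effector list 5 of 19 tested genes lay above all 12, on the sensor list 3 of 17 and on the macrophage list 2 of 28. The median log2 fold change of the effectors was 0.87 against age 4 and 0.72 against age 7, where all genes had -0.02 and -0.000516.

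The effector mxa was at 7.86 to 16.2 CPM at age 2, 33.3 to 119 CPM at age 4, 21.1 to 105 CPM at age 7 and 135 to 365 CPM at age 9. For uba7 the ranges were 6.89 to 14.7 CPM at age 2, 20.8 to 58.3 CPM at age 4, 9.08 to 38.4 CPM at age 7 and 65 to 137 CPM at age 9. For irf3 they were 15.7 to 25.2, 30.03 to 77.1, 15.4 to 78.2 and 87.4 to 133 CPM in the same order. In these genes every age 9 testis exceeded every other, and the ranges of ages 4 and 7 overlapped each other. The lactate dehydrogenase ldhbb was at 15.3 to 38.2 CPM at age 2, 25.6 to 39.6 CPM at age 4, 30.9 to 63.4 CPM at age 7 and 64.1 to 159.7 CPM at age 9, above the rest by a narrow margin (2.04 ± 0.34 against age 2, adjusted p = 0.00315). The hormone insl3 did not: its range was 41.1 to 558 CPM at age 4 and 36.7 to 1278 CPM at age 7, and both overlapped 53.2 to 886 CPM at age 9.

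Among genes lowest at age 9, unc119b, a carrier of lipid-modified proteins to cilia, lay at 22.3 to 69.6 CPM at age 2, 17.9 to 40.1 CPM at age 4, 11.8 to 23.9 CPM at age 7 and 6.44 to 10.1 CPM at age 9 (-2.71 ± 0.37 against age 2, adjusted p = 0.00211). The stress response factor cebpg had a narrower spread, with 277 to 314 CPM at age 2, 218 to 245 CPM at age 4, 228 to 278 CPM at age 7 and 175 to 205 CPM at age 9 (-0.65 ± 0.14 against age 2, adjusted p = 0.0077). The cell cycle inhibitor cdkn1a (-1.36 ± 0.29), the carbonic anhydrase ca7 (-2.30 ± 0.41) and the repair gene pms2 also lay below all 12 other libraries in every age 9 testis. Because all 3 comparisons share the age 9 libraries, they are not independent of each other.

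**Figure D5:**
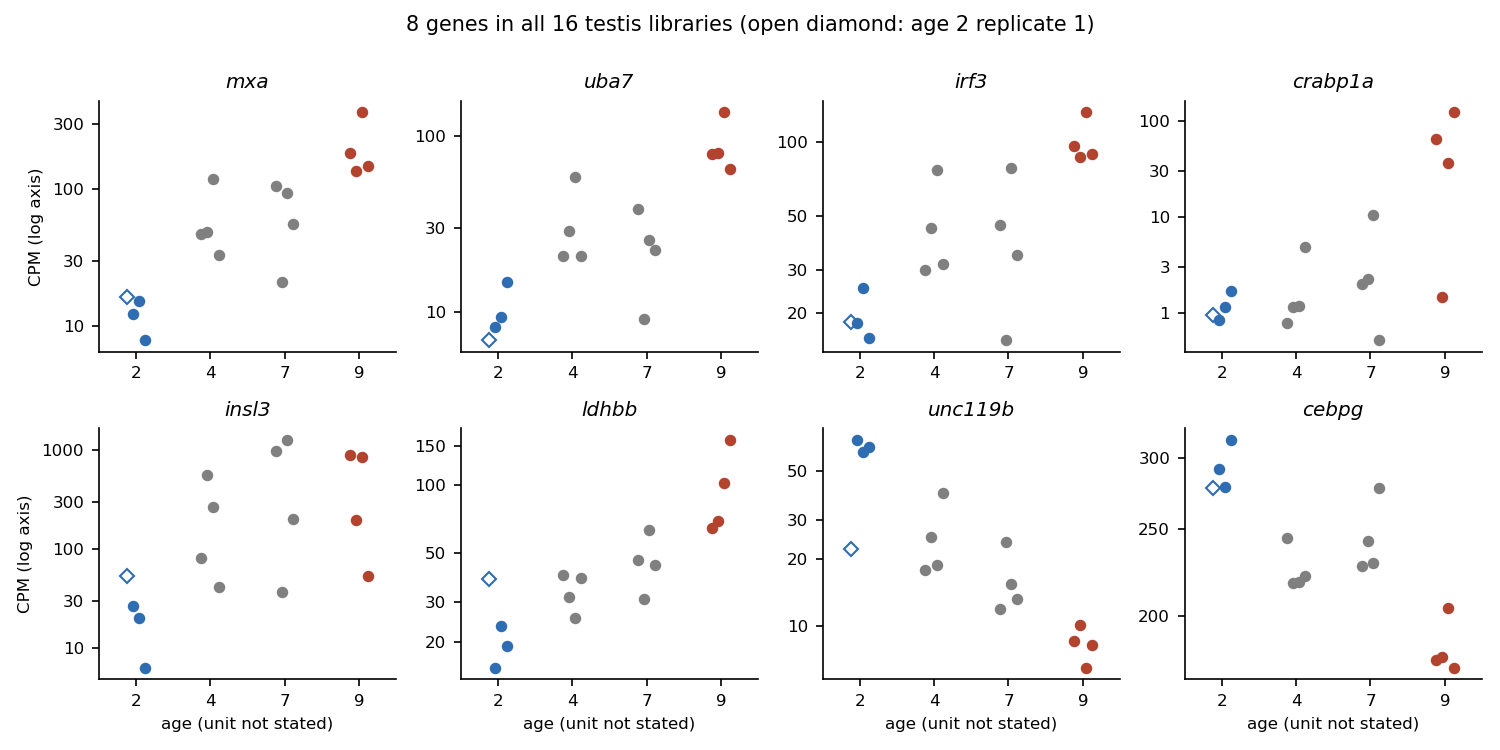
Level in CPM (log axis, scales differ) of 8 genes in all 16 libraries by age, with age 9 in red, age 2 in blue, ages 4 and 7 in grey and age 2 replicate 1 as an open diamond. In mxa, uba7, irf3 and ldhbb the 4 age 9 points lie above all 12 others and in unc119b and cebpg below them, whereas crabp1a and insl3 vary widely within age 9.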

How the data were processed

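RNA was measured in 16 testis libraries, 4 at each of ages 2, 4, 7 and 9. Per the labels' protocols, DNase-treated total RNA went into NEBNext Ultra II RNA libraries. Tools named in the submitters' processing notes are HTSeq 0.11.1, STAR 2.7.5 and Trimmomatic 0.39, with edgeR 4.4.2, FastQC 0.11.9 and MultiQC 1.10.1. The authors deposited raw counts per transcript for each library, with no normalization; the sources used here do not give the genome build, strand setting or unit of age. Without a stated strand, a gene and its antisense partner cannot be told apart.

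Each file lists 50072 transcripts and 5 summary rows, which were left out. Counts were summed per gene symbol, as the files pair them. Genes were kept by filterByExpr (count at least 10, total at least 15), scaled by TMM and fitted with edgeR 4.0.16 in R 4.3.3 (glmQLFit with robust estimation, glmQLFTest), all 16 libraries in 1 model by age with 12 residual degrees of freedom. Tests are two-sided, p-values were adjusted by Benjamini and Hochberg over all genes, and errors are standard errors. The script was tested on simulated counts. Replicate libraries differed by more than sampling noise, so each was counted.

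The members and the 48 gene lists were chosen with earlier results of these data known. Of 3072 listed genes 2103 were tested. Genes named are the 15 largest changes in each direction with at least 1 CPM and no overlap, up to 2 unnamed genes each way, the 4 smallest p in each list, every called member of 9 lists, the cell type markers and 10 genes each way with age 9 apart from all other libraries. A few genes that this rule names are not reported here. Added after the values were seen were the 4 smallest p without age 2 replicate 1 in 5 lists. Alternatives used DESeq2 1.42.0, limma 3.58.1, other scalings and filters, fewer libraries and, chosen after seeing the data, genes with 1 transcript alone.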

Additional observations from a re-analysis of the deposited data

Results flagged for a closer look

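Within an age of 4 libraries, 28 of 382 groups of values (7.33%) had 1 library far from the others by Dixon's ratio at its 95% critical value, where chance alone marks about 1 in 20; 16 of them concern age 2 replicate 1. No explanation was tested for any of them.

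At age 9, replicate 3 was the highest in cmpk2 (140.0 CPM, the others up to 82.1), psmd12 (137 CPM, the others up to 122), cckar (0.46 CPM, the others up to 0.183) and cebpg (205 CPM, the others up to 180.0). Replicate 4 was the highest in mpeg1.1 (45.7 CPM, the others up to 22.1), in tdrd1 (143 CPM, the others up to 77.3) and in the mean of the macrophage list (4.73 on the log2 CPM scale, the others up to 4.36). Replicate 2 was the highest in gdpd3a (0.367 CPM, the others up to 0.171), and replicate 3 the lowest in the mean of the Sox, Dmrt, Fox, Gata and Lhx list (2.55 on the log2 CPM scale, the others from 2.66).

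At age 2, replicate 1 was the lowest in henmt1 (9.62 CPM, the others from 35.9), kitlgb (2.56 CPM, the others from 18.2), cdh2 (24.7 CPM, the others from 185) and dnah9l (17.8 CPM, the others from 50.8). It was also the lowest in epha8 (1.44 CPM, the others from 78.7), kremen1 (4.33 CPM, the others from 46.7), irs1 (184 CPM, the others from 431), col4a6 (56.1 CPM, the others from 280.5), lrata (2.56 CPM, the others from 20.7) and unc119b (22.3 CPM, the others from 61.5). In the immune genes cd79a (31.3 CPM, the others from 109) and c4 (18.4 CPM, the others from 103) it was the lowest again. It was the highest in insl5b (1.28 CPM, the others at 0), nuf2 (86.6 CPM, the others up to 13.0), ndufa10 (119.9 CPM, the others up to 35.7) and the mean of the sarcomere list (3.35 on the log2 CPM scale, the others up to 3.19). Replicate 4 was the lowest in cmpk2 (2.01 CPM, the others from 5.29) and the highest in c1qa (14.2 CPM, the others up to 8.76) and atr (122.9 CPM, the others up to 107).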

How the results depend on the processing

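With limma voom and quality weights, which gave age 2 replicate 1 a weight of 0.12, 7806 genes passed for age 9 against age 2 (3716 higher, 4090 lower). The 8 libraries alone gave 987 (400 higher, 587 lower), and these without age 2 replicate 1 gave 7189 (3508 higher, 3681 lower). DESeq2 called 1664 higher, and 111 genes against age 4 and 75 against age 7. With each library of ages 9 and 2 left out in turn, 1157 to 7028 genes passed, 396 to 3602 higher and 744 to 3426 lower.

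Spermatogonia genes lower numbered 15 by voom, 5 in the 8 libraries alone, 16 in these without age 2 replicate 1, and 3 to 13 with 1 library left out. Flagellum genes higher numbered 7 by DESeq2, 53 by voom, 0 in the 8 libraries alone, 53 in these without age 2 replicate 1, 0 among genes with 1 transcript and 1 to 54 with 1 library left out. Matrix genes lower numbered 42, 7 and 47 by voom, in the 8 libraries and in these without age 2 replicate 1, and 12 to 41 with 1 library left out. Ribosomal protein genes lower numbered 32 with upper quartile scaling, 13 with no filter, 62 by voom, 5 in the 8 libraries, 49 in these without age 2 replicate 1, and 4 to 43 with 1 library left out. Interferon effectors higher ranged from 12 to 13 and macrophage genes higher from 8 to 15 with 1 library left out.

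Of 130 called genes named, 92 kept their call in all 8 fits with a library left out, and no call reversed under any alternative; dmc1, not called, ranged from -0.0162 without age 2 replicate 4 to 1.93 without age 2 replicate 1. Same-numbered replicates of ages 9 and 2 had correlations of their deviations of 0.03, -0.11, -0.10 and 0.29, and not every sample correlated best with its own number, so the numbers were not taken as pairs. With a replicate block 1231 genes were higher and 1559 lower, and 9 of the 130 calls were lost. The cause of these differences was not tested. Low counts limit genes such as hpxa.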

Other observations

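Genes of cell contacts and of cell metabolism, not described above, changed in both directions at age 9. Of 61 tested claudin, cadherin, connexin and other junction genes 5 rose (8.2%) and 11 fell (18%), against 6.82% and 11.5% of all genes. The adhesion protein nectin3b, which in mice joins spermatids to Sertoli cells, stood at 651, 799, 695 and 713 CPM at age 9, against 553, 351, 318 and 302 CPM at age 2 (0.91 ± 0.21 on the log2 scale, SE, adjusted p = 0.0113 by edgeR), with no overlap. Without age 2 replicate 1, 9 of 62 junction genes rose (14.5%) and 17 fell (27.4%), against 21.7% and 20.6% of all genes. Nuclear receptors fell in 9 of 41 cases (22%, against 11.5% of all genes) and rose in 1. Without age 2 replicate 1, 17 of 42 receptors fell (40.5%, against 20.6% of all genes), and 4 to 17 fell with 1 library left out. Among them were the clock-linked factors rorc (-1.58 ± 0.37) and nr1d2a, at 69.9, 70.4, 96.1 and 89.5 CPM at age 9, against 115, 183, 195 and 227 CPM at age 2 (-1.14 ± 0.27, adjusted p = 0.0134).

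The glutathione-making enzyme gclc was at 111, 88, 127 and 124 CPM at age 9, against 177, 203, 173 and 184 CPM at age 2 (-0.71 ± 0.16, adjusted p = 0.00974), and thioredoxin txn at 98, 116, 92.8 and 132 CPM, against 80.9, 43.1, 60.8 and 68.2 CPM at age 2 (0.79 ± 0.23, adjusted p = 0.027). Both kept the ages apart and moved opposite ways. In their list of 41 antioxidant genes 1 rose (2.44%) and 4 fell (9.76%), against 6.82% and 11.5% of all genes. Without age 2 replicate 1, 8 of the 42 antioxidant genes then tested rose and 8 fell (19% each way). Of all genes in that fit 21.7% rose and 20.6% fell. The mitochondrial chaperone hspd1 was at 88.7, 68, 100.4 and 105 CPM at age 9, against 138, 211, 139.9 and 202 CPM at age 2 (-0.93 ± 0.23, adjusted p = 0.0159), also without overlap, though the call was lost without age 9 replicate 2 or age 2 replicate 2 (adjusted p 0.0552 to 0.0568). Of 94 tested heat shock and chaperone genes 7 rose and 5 fell (5.32%, against 11.5% of all genes). In the fit without age 2 replicate 1, 29 of 95 such genes rose (30.5%) and 6 fell (6.32%). Among 54 glycolysis and citrate cycle genes 4 rose (7.41%) and 2 fell (3.7%). Without age 2 replicate 1, 20 of 57 rose (35.1%) and 7 fell (12.3%). The lactate dehydrogenase ldhba, at 310.5, 613, 337 and 354 CPM at age 9, against 341, 55.6, 69.5 and 78.1 CPM at age 2 (1.57 ± 0.46, adjusted p = 0.0291), had age 2 replicate 1 within the age 9 range.

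The complement pair c4b and c4 placed age 2 replicate 1 at opposite ends of its age. The level of c4b was 264, 286, 237 and 311 CPM at age 9, against 228, 17.4, 39.9 and 70.1 CPM at age 2 (1.63 ± 0.54, adjusted p = 0.0459), and that of c4 271, 348, 162 and 284 CPM at age 9, against 18.4, 103, 126 and 114 CPM at age 2 (1.56 ± 0.56, adjusted p = 0.0605, which did not pass). In both genes all age 9 libraries lay above all of age 2. Near copies such as these can share fragments in the counting. With single libraries left out, the call of txn was lost without any 1 library other than age 9 replicate 1 or 3, or age 2 replicate 1 (adjusted p 0.0539 to 0.092). That of ldhba was lost without any 1 library other than age 9 replicate 1 or 4, or age 2 replicate 1 (adjusted p 0.0505 to 0.0968) and that of c4b without any 1 library other than age 2 replicate 1 (adjusted p 0.0709 to 0.129).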
